A study of Caenorhabditis elegans with 18 samples.

Results

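The comparison described here set 3 RNA libraries of hsf-1(sy441) larvae against 3 libraries of N2 larvae, all made after heat shock at 34 °C. They were chosen by strain and temperature from the 18 libraries of the study, which cover 3 strains with and without heat shock. The mutant animals, strain PS3551, carry the sy441 allele of hsf-1 and no other allele that the labels name, and N2 is the wild type of Caenorhabditis elegans. All were whole L2 larvae, synchronised with hypochlorite, hatched in M9 buffer and raised to mid-L2 on NGM plates with OP50 bacteria at 20 °C. For heat shock, plates sealed with parafilm were held for 30 min in a water bath at 34 °C, and polyadenylated RNA was then sequenced. Libraries of hsf-1(sy441) and N2 larvae kept at 20 °C give the strain difference without heat shock. A further strain, AM1062, holds hsf-1(sy441) I together with the transgene rmSi1 [hsf-1::gfp] II and unc-119(ed9) III. Its heat-shocked libraries are given side by side only, and the labels state neither the promoter of the transgene nor the number of lines. Whether the 3 libraries of a group are separate cultures is not stated in the labels, and the spread that the p-values measure may be technical.

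HSF-1 is the transcription factor that activates heat shock genes in nematodes as in other animals. On heat stress it forms trimers and binds heat shock elements in front of genes for molecular chaperones, proteins that hold or refold damaged polypeptides. The sy441 allele is a nonsense mutation that truncates the C-terminal activation domain of the protein. In C. elegans HSF-1 is also known for roles in larval growth and in lifespan.

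The 6 libraries held between 18.2 and 34.7 M fragments, of which 6.49% to 7.75% fell in genes whose abundance estimate had failed in some library and which were left out. Levels are given in CPM, counts per 1 M fragments after scaling with TMM factors, as mean ± SD with n = 3, and differences as log2 fold changes of hsf-1(sy441) over N2 ± SE. Adjusted p-values are from edgeR's quasi-likelihood test with Benjamini-Hochberg adjustment over 14219 genes, and a gene was called below 0.05. Of these genes 4124 (29.0%) were called, 2111 (14.8%) higher and 2013 (14.2%) lower in hsf-1(sy441) larvae. With the replicate numbers as a block the counts were 3187 higher and 2987 lower, and with the 6 libraries fitted alone they were 584 higher and 387 lower. Most differences were small: 1471 of the higher and 1416 of the lower calls were at most 2-fold, and 201 higher and 342 lower calls were over 4-fold. In 3004 genes (21.1%) every hsf-1(sy441) library lay above every N2 library, and in 2478 (17.4%) every one lay below. The median log2 fold change over all tested genes was 0.02, and scaling to library totals moved it by 0.13 and the share of calls that were higher to 69.3%, against 51.2%. The libraries numbered 3 stood apart from the other 2 of their strain in cuticle and moulting genes, as the values below show, and without both of them 2064 genes were called higher and 1817 lower.

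**Figure D1:**
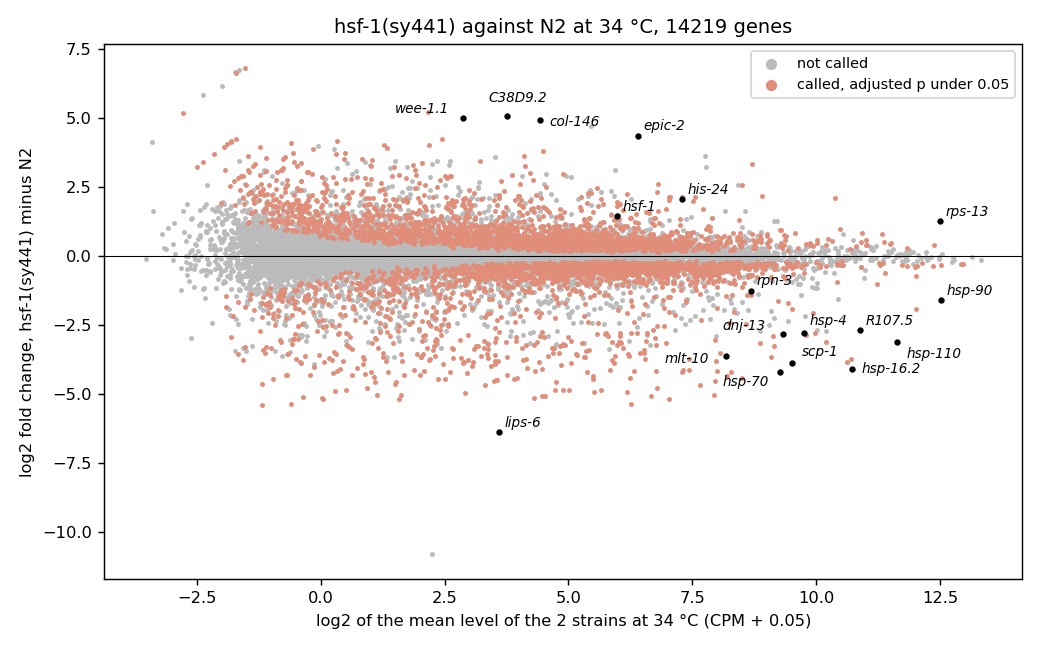
The log2 fold change of hsf-1(sy441) over N2 at 34 °C (y axis) is plotted against the log2 mean level of both strains in CPM (x axis) for the 14219 genes tested, coloured where called. Chaperone genes such as hsp-110 and hsp-90 lie low at high levels, and lips-6 has the largest negative fold among the named genes.

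The targeted gene itself was more abundant in the mutant. Its transcript hsf-1 (Y53C10A.12; ce10 chromosome I, 11953502 to 11961977) stood at 84.8, 92.3 and 98.7 CPM in hsf-1(sy441) larvae, against 31.5, 30.8 and 38.5 CPM in N2 larvae at 34 °C. The groups did not overlap, with a log2 fold change of 1.45 ± 0.0937 (adjusted p = 9.7e-08). At 20 °C the difference was 1.31, and the test of the difference between temperatures gave an adjusted p of 0.79. A nonsense allele leaves a transcript to be counted, so the level of hsf-1 does not by itself check the labels. In the transgene strain at 34 °C hsf-1 reached 103.5 ± 7.66 CPM, a value in which the transgene and the endogenous gene are not separated.

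The heat-inducible chaperone genes were the clearest group below N2. They are nearly silent without stress and are known as direct HSF-1 targets. The inducible cytosolic Hsp70 is encoded by hsp-70 (sequence name C12C8.1), in a locus of chromosome I from 9317728 to 9327204 that is merged with 1 other gene. It stood at 61.0, 58.2 and 74.8 CPM in hsf-1(sy441) larvae, against 1005, 1432 and 1075 CPM in N2 larvae. It was 18.1-fold lower (log2 −4.18 ± 0.230, adjusted p = 1.8e-08), and the lowest N2 library lay far above the highest mutant library. Without heat shock hsp-70 averaged 2.13 CPM in hsf-1(sy441) and 0.431 CPM in N2 larvae, the opposite direction (log2 2.32, adjusted p = 9.1e-05). The strain difference at 34 °C was thus lower than that at 20 °C by 6.49 on the log2 scale (adjusted p = 6e-08).

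The small heat shock proteins of the hsp-16 family bind unfolding proteins and keep them soluble. The level of hsp-16.2 (Y46H3A.3) was 172, 169 and 224 CPM in hsf-1(sy441), against 3037, 3267 and 3335 CPM in N2 larvae, or 17.1-fold lower (log2 −4.09 ± 0.991, adjusted p = 0.0094). Its divergent neighbour hsp-16.41 (Y46H3A.2) stood at 209, 194 and 306 CPM in the mutant, against 2825, 3287 and 3161 CPM in N2. Its fold change of −3.71 ± 1.21 on the log2 scale passed the test (adjusted p = 0.036) but not under 8 of 18 alternatives, where p reached 0.1. Libraries of the 2 strains lay far apart for both genes. Both belong to 1 locus of 4 merged genes on chromosome V (1799725 to 1809467), so reads that cannot be assigned to either make their single values uncertain. The difference between temperatures was −4.94 for hsp-16.2 and −5.54 for hsp-16.41 on the log2 scale and was not called (adjusted p = 0.19 and 0.23). At 20 °C both were near the detection limit, at 1.19 CPM in hsf-1(sy441) and 0.692 CPM in N2 larvae for hsp-16.2.

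Of the 9 inducible genes listed, 4 could be tested and 3 were called lower, with a median log2 fold change of −3.90 against 0.02 over all genes. The fourth, hsp-16.48, had 1, 8 and 14 fragments in hsf-1(sy441) and 6, 11 and 12 fragments in N2 libraries, and the groups overlapped (log2 −1.08, adjusted p = 0.18). Its near copy hsp-16.49 had 0, 3 and 7 fragments in the mutant and 3, 7 and 5 in N2 and was not tested. Whether fragments of these near copies were assigned elsewhere or lost was not examined, so the low counts may not give the level of either gene. The abundance estimates of the remaining 4 had failed, namely those of the Hsp70 genes F44E5.5 and F44E5.4 and of hsp-16.11 and hsp-16.1, and each of these 4 has a near-identical copy. Summed over the 4 tested genes, hsf-1(sy441) libraries held 421 to 605.5 CPM and N2 libraries 6867 to 7986 CPM at 34 °C. In the transgene strain the same sum was between 4892 and 6150 CPM.

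**Figure D2:**
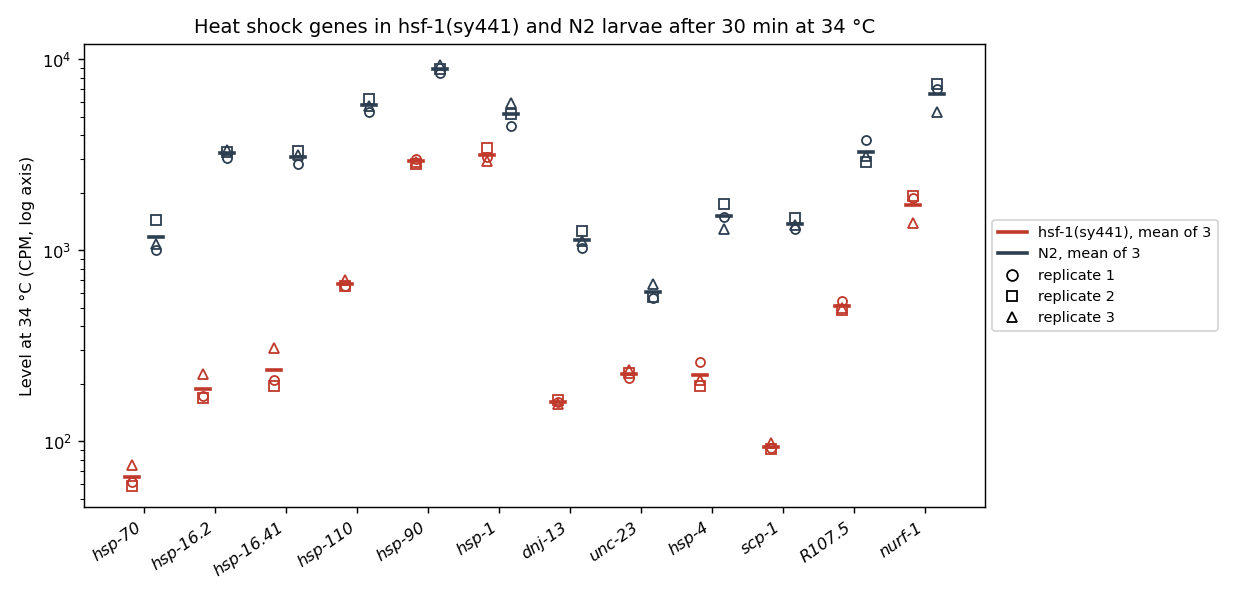
Levels at 34 °C in CPM on a log axis are shown for 12 genes, with 1 symbol per library and a bar at the mean of 3. In each gene all hsf-1(sy441) libraries lie below all N2 libraries, by 18.1-fold for hsp-70 and by 1.66-fold for hsp-1.

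The cytosolic Hsp70 and Hsp90 machinery, which is also made without stress, was lower as well, to very unequal degrees. Of 20 genes tested, 12 were lower and 2 higher, with a median of −0.31, and at 20 °C 5 were lower and 1 higher. Scaling to library totals left 7 lower and 2 higher. The 7 genes bag-1, dnj-13, fkb-6, hsp-1, hsp-110, hsp-90 and unc-23 were called lower under each of the 19 alternatives.

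The largest member change was in hsp-110 (C30C11.4; chromosome III, 8443832 to 8446846), which exchanges the nucleotide of Hsp70. It stood at 650.5, 648 and 698 CPM in hsf-1(sy441), against 5311, 6207 and 5684 CPM in N2 larvae, 8.62-fold lower (log2 −3.11 ± 0.0810, adjusted p = 4.2e-12). The groups were tight and far apart, and the transgene strain lay between them at 3748 ± 338 CPM. At 20 °C hsp-110 averaged 431 CPM in hsf-1(sy441) and 381 CPM in N2 larvae, and the difference between temperatures was −3.29 (adjusted p = 1.2e-10). The J-domain gene dnj-13 (F54D5.8), a Hsp40 partner that delivers clients to Hsp70, stood at 161, 164 and 157 CPM in the mutant, against 1029, 1253 and 1118 CPM in N2. It was 7.06-fold lower (log2 −2.82 ± 0.123, adjusted p = 1.5e-09), in a locus of 5 merged genes on chromosome II (11538839 to 11552016). Unlike hsp-110 it was already lower at 20 °C, at 170 CPM in hsf-1(sy441) and 253 CPM in N2 larvae (adjusted p = 0.0048).

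The most abundant of these transcripts was hsp-90 (C47E8.5), the Hsp90 gene that supports kinases and steroid receptors. It stood at 3016, 2841 and 2900 CPM in hsf-1(sy441), against 8454, 8874 and 9309 CPM in N2 larvae (log2 −1.60 ± 0.0648, adjusted p = 6.1e-10). No library of either strain came near the other group. The transgene strain reached 8231 ± 503 CPM. At 20 °C hsp-90 was already lower, at 1682 CPM in hsf-1(sy441) and 2486 CPM in N2 larvae (log2 −0.56, adjusted p = 5.5e-05). The difference between temperatures was −1.04 (adjusted p = 1.3e-05). The gene unc-23, a BAG-domain cofactor of Hsp70 known for muscle attachment, stood at 213, 229 and 236 CPM in the mutant and 562, 571 and 669 CPM in N2 (log2 −1.41 ± 0.102, adjusted p = 4e-07). The constitutive Hsp70 gene hsp-1, described here after its values were seen, stood at 3065, 3407 and 2920 CPM in the mutant and 4492, 5190 and 5870 CPM in N2. Its difference was small beside that of hsp-70 (log2 −0.73 ± 0.102, adjusted p = 0.00024), yet it too was more negative at 34 °C than at 20 °C, by −0.84 (adjusted p = 0.014).

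Other cofactors, chosen after their values were seen, differed less. The BAG-domain gene bag-1 averaged 17.9 CPM in hsf-1(sy441) and 31.2 CPM in N2 larvae (log2 −0.80, adjusted p = 0.0016), and the immunophilin gene fkb-6 148 and 241 CPM (log2 −0.70). Log2 differences of −0.32 to −0.21 were called for daf-41, the p23 cofactor of Hsp90, for ahsa-1, which stimulates the ATPase of Hsp90, and for the J-domain genes dnj-8, dnj-12 and dnj-19. The Hsp70 and Hsp90 adaptor gene sti-1 stood at 125 CPM in the mutant and 158 CPM in N2 and did not pass (adjusted p = 0.091). Of the 2 genes called higher, pph-5 encodes a phosphatase that binds Hsp90 (log2 0.28), and stip-1 (log2 0.31), whose homologues act in splicing, is no chaperone cofactor.

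In the endoplasmic reticulum a single chaperone gene stood out. Transcript levels of hsp-4 (F43E2.8; chromosome II, 7350076 to 7352593), an inducible BiP gene and the usual readout of the unfolded protein response, were 260, 195 and 209 CPM in hsf-1(sy441), against 1484, 1743 and 1286 CPM in N2 larvae. The difference was 6.80-fold (log2 −2.77 ± 0.212, adjusted p = 6.5e-07), with no overlap. At 20 °C hsp-4 averaged 140 CPM in the mutant and 185 CPM in N2, and the difference between temperatures was −2.36 (adjusted p = 0.00047). The transgene strain stood between the groups at 968 ± 300 CPM. Of 22 genes of folding and quality control in this compartment 9 were lower and 1 higher, with a median of −0.28, and at 20 °C 12 were lower. The derlin gene cup-2 (log2 −0.73) and the neurotrophic factor gene manf-1 (log2 −0.60) were lower. The stress sensor gene atf-6 was higher (log2 0.58, adjusted p = 0.041), but its N2 libraries spread from 17.8 to 32.6 CPM and 9 of 19 alternatives ended the call.

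Chaperones outside these groups showed small or uneven differences. Of 13 chaperonin and prefoldin genes, whose complexes fold actin and tubulin, 6 were lower, led by pfd-6 (76.9 CPM in hsf-1(sy441) and 110.5 CPM in N2 larvae, log2 −0.52, adjusted p = 0.00053). Their median was −0.21, and scaling to library totals left 1 call. Of 16 mitochondrial chaperone and protease genes 6 were lower with a median of −0.10, among them the prohibitin gene phb-2 at 481 CPM in the mutant and 659 CPM in N2 (log2 −0.46, adjusted p = 0.00027). Scaling to library totals turned that median to 0.04 with 3 lower, and leaving out single libraries gave 1 to 5 lower. At 20 °C 9 of the 16 were lower with a median of −0.28. Of 9 small heat shock protein genes outside the inducible list 2 (22.2%) were higher and 2 (22.2%) lower, against 14.8% and 14.2% of all genes. The higher ones were hsp-43 (94.7 CPM in hsf-1(sy441) and 43.9 CPM in N2, adjusted p = 0.04) and hsp-17 (98.6 and 66.2 CPM, adjusted p = 0.01), both also higher at 20 °C. The gene hsp-16.21 stood at 0.592, 0.377 and 0.233 CPM in the mutant and at 0.418, 0.102 and 20.1 CPM in N2. Its log2 fold change of −4.12 (adjusted p = 0.027) rested on N2 replicate 3, without which it was 0.66. For hsp-12.6 the groups overlapped too (log2 −1.79, adjusted p = 0.018).

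Some genes that encode no classical chaperone differed as much as the heat shock genes. The sterol sensor gene scp-1 (D2013.8; chromosome II, 9333953 to 9338838), the nematode SCAP homologue that escorts the SREBP factor, stood at 91.8, 91.2 and 97.7 CPM in hsf-1(sy441), against 1287, 1480 and 1362 CPM in N2 larvae. It was 14.7-fold lower (log2 −3.88 ± 0.0838, adjusted p = 5.7e-13), and in the authors' deposited table the log2 ratio was −4.49. At 20 °C scp-1 averaged 56.4 CPM in the mutant and 55.2 CPM in N2, so the difference between temperatures was −3.91 (adjusted p = 2.4e-11).

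The next genes were chosen after their values were seen, among those whose strain difference differed between temperatures. R107.5 (chromosome III, 9051514 to 9053708), for which no role is given here, stood at 544, 484 and 497 CPM in hsf-1(sy441), against 3772, 2908 and 3120 CPM in N2 larvae (log2 −2.69 ± 0.150, adjusted p = 2e-08). The chromatin remodelling gene nurf-1, whose product is a subunit of the NURF complex, stood at 1866, 1928 and 1384 CPM in the mutant and at 6970, 7369 and 5306 CPM in N2 (log2 −1.92 ± 0.143, adjusted p = 5e-07). All N2 libraries exceeded all mutant libraries for both genes. At 20 °C nurf-1 averaged 208 CPM in hsf-1(sy441) and 216 CPM in N2 larvae.

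Others of these genes have varied known roles, and for R11A5.3 and Y43F8B.2 none is given here. The tubulin tyrosine ligase-like gene ttll-12, next to scp-1 on the chromosome, averaged 133 ± 7.93 CPM in hsf-1(sy441) and 991 ± 97.1 CPM in N2 larvae (log2 −2.90). The arsenite-inducible gene aip-1, whose product binds the proteasome, averaged 34.5 CPM in the mutant and 121.5 CPM in N2 (log2 −1.82). The CLASP gene cls-2, a regulator of microtubules, averaged 79.6 CPM in the mutant and 249.9 CPM in N2 (log2 −1.65), and the kinase gene ikke-1 59.1 and 179.8 CPM (log2 −1.61). The dynein cofactor gene nud-2 fell to 68.1 CPM in the mutant, against 189.6 CPM in N2 (log2 −1.48). R11A5.3 averaged 34.0 ± 3.12 CPM in hsf-1(sy441) and 471.5 ± 145.5 CPM in N2 larvae (log2 −3.79), and Y43F8B.2 376 and 1584 CPM (log2 −2.07). The elongation factor 2 kinase gene efk-1 averaged 91.3 CPM in the mutant and 162.9 CPM in N2 (log2 −0.84).

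The autophagy receptor gene sqst-1, whose p62 product carries ubiquitinated cargo, stood at 107.7, 117 and 114 CPM in hsf-1(sy441), against 213, 353 and 306 CPM in N2 larvae. It was 2.58-fold lower without overlap (log2 −1.37 ± 0.159, adjusted p = 4.9e-05), while at 20 °C it averaged 84.6 CPM in the mutant and 73.1 CPM in N2. Of 21 autophagy and lysosome genes 4 were higher and 3 lower, with a median of −0.06, which scaling to library totals turned to 0.07. The transmembrane autophagy gene atg-9 was higher at 37.97 CPM in hsf-1(sy441) and 21.7 CPM in N2 larvae (log2 0.80, adjusted p = 0.0028), and so was the autophagy kinase gene unc-51 (log2 0.55).

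Of 14219 genes, 70 (0.492%) had a strain difference that differed between 34 °C and 20 °C, 43 (0.302%) with a more negative and 27 (0.19%) with a more positive value at 34 °C. Of the 43, 40 were called lower in hsf-1(sy441) at 34 °C, and 30 were not called at 20 °C. Of the 27, 25 were called higher at 34 °C, and 16 were not called at 20 °C. The number called ran from 48 to 156 when single libraries were left out, was 217 with the replicate block and was 404 with DESeq2. At 20 °C 2969 genes (20.9%) differed between the strains, 1340 (9.42%) higher and 1629 (11.5%) lower in hsf-1(sy441). Of the genes higher in the mutant at 34 °C, 800 were also higher at 20 °C, which is 37.9% of the calls at 34 °C and 59.7% of those at 20 °C. Of the lower genes 972 were also lower at 20 °C, which is 48.3% of the calls at 34 °C and 59.7% of those at 20 °C. In the opposite sense, 5 genes were higher at 34 °C but lower at 20 °C and 9 the reverse. The comparisons share no library, but same-numbered libraries of a strain could be alike at both temperatures. In N2, lips-6 stood at 8.12, 40.1 and 0.544 CPM at 20 °C and at 10.81, 59.5 and 1.14 CPM at 34 °C. Whether same-numbered libraries come from 1 culture is not stated in the labels, so both sets of calls may not be independent.

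**Figure D3:**
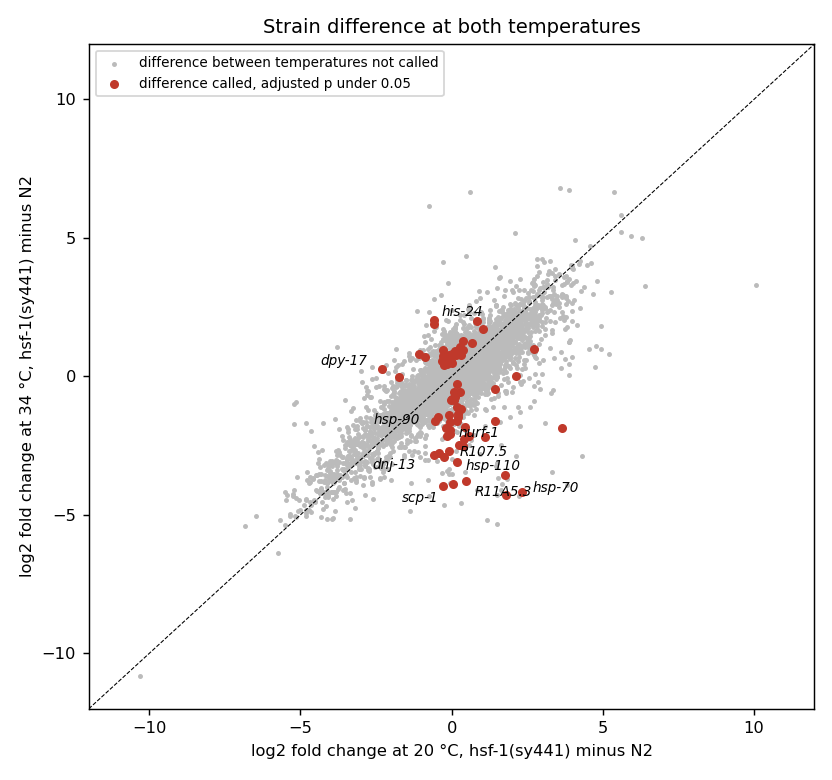
Log2 fold changes of hsf-1(sy441) over N2 are plotted for each gene, at 34 °C on the y axis and at 20 °C on the x axis, with a dashed line where they are equal. The 70 genes whose strain difference differed between temperatures are marked, and hsp-70, hsp-110 and scp-1 lie far below the line while his-24 and dpy-17 lie above it.

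Among genes with a more positive difference at 34 °C was his-24 (M163.3; chromosome X, 14490037 to 14491045), which encodes a linker histone. It stood at 254, 254 and 250 CPM in hsf-1(sy441), against 44.8, 74.3 and 63.5 CPM in N2 larvae, or 4.15-fold higher (log2 2.05 ± 0.328, adjusted p = 0.00071). The mutant libraries were nearly equal and lay above all N2 libraries. At 20 °C his-24 averaged 80.8 CPM in the mutant and 121 CPM in N2, and the difference between temperatures was 2.64 (adjusted p = 0.016). The others described here were chosen after their values were seen. The Notch co-ligand gene osm-11 averaged 821 CPM in hsf-1(sy441) and 429 CPM in N2 larvae (log2 0.94), the beta-catenin gene sys-1 39.1 and 22.2 CPM (log2 0.82), and the polarity gene par-3 143 and 61.5 CPM (log2 1.22). F52G3.1 reached 292 CPM in the mutant and 73.5 CPM in N2 (log2 1.99), and Y17G7B.21 192.5 and 58.2 CPM (log2 1.73). For sys-1 the strains were equal at 20 °C, at 11.5 CPM in each. The collagen gene dpy-17 averaged 112 ± 36.4 CPM in the mutant and 92.8 ± 22.9 CPM in N2 at 34 °C and was not called, but at 20 °C it averaged 0.556 CPM in the mutant and 2.75 CPM in N2, so the difference between temperatures was 2.58 (adjusted p = 0.0095).

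Among protein degradation genes, those of the proteasome were lower most often. The proteasome, the protease complex that digests ubiquitinated proteins, had 31 tested subunit genes, of which 23 were lower and 8 did not pass, with a median of −0.57. At 20 °C 15 were lower, with a median of −0.56. The regulatory subunit gene rpn-3 (C30C11.2), which lies next to hsp-110, stood at 257, 262 and 207 CPM in hsf-1(sy441), against 578, 647 and 506 CPM in N2 larvae (log2 −1.26 ± 0.150, adjusted p = 6.3e-05). The groups did not overlap, and the call held under each of 19 alternatives. The core subunit genes pas-2 (195 CPM in the mutant, 333 CPM in N2), pas-3 (256.5 and 436 CPM) and pbs-3 (157 and 253 CPM) were lower by 0.78, 0.76 and 0.69 on the log2 scale. The summed level of the subunits was lower in the libraries numbered 3 of both strains, at 4448 CPM in hsf-1(sy441) and 6611 CPM in N2, against 5893 and 6035 CPM in the other mutant libraries and 8922 and 9000 CPM in the other N2 libraries. Between 3 and 25 subunit genes were called lower when single libraries were left out, 1 with the 6 libraries alone and 28 with the replicate block. Of 20 genes of the ubiquitin system 6 (30.0%) were lower and 1 (5.0%) higher, against 14.2% and 14.8% of all genes, with a median of −0.30. Among the lower ones were the deubiquitinase gene usp-14 (97.1 CPM in hsf-1(sy441), 181 CPM in N2, log2 −0.90) and cdc-48.2, which extracts ubiquitinated proteins (log2 −0.73). Of the 20, scaling to library totals left 2 lower, at most 5 were lower when single libraries were left out, and the replicate block gave 12.

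Genes for mitochondrial translation and respiration were lower by small amounts. Of 66 mitochondrial ribosomal protein genes 40 were lower and 26 did not pass, with a median of −0.32, and at 20 °C 9 were lower. The subunit genes mrps-16 (39.1 CPM in hsf-1(sy441) and 60.1 CPM in N2 larvae, log2 −0.62, adjusted p = 5.7e-05) and mrpl-32 (59.4 and 92.9 CPM, log2 −0.64) were the farthest apart. Of 49 respiratory chain genes 26 were lower with a median of −0.27, such as the ATP synthase gene asb-1 (53.1 CPM in the mutant, 79.9 CPM in N2, log2 −0.59, adjusted p = 0.00037) and the complex I gene nuo-6 (215 and 311 CPM, log2 −0.53). Scaling to library totals left 23 lower and 2 higher mitochondrial ribosomal genes and 12 lower and 3 higher respiratory chain genes. With the 6 libraries alone 5 in each list were lower.

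Cytosolic ribosomal protein genes were called about as often as all genes. Of 73 genes 13 (17.8%) were higher and 12 lower, against 14.8% and 14.2% of all genes, with a median of −0.01, and scaling to library totals turned this into 21 higher and 2 lower. A single gene stood out, rps-13 (C16A3.9; chromosome III, 6374041 to 6374950), a subunit gene of the small ribosomal subunit. It stood at 8220, 8298 and 7987 CPM in hsf-1(sy441), against 3434, 3192 and 3538 CPM in N2 larvae (log2 1.27 ± 0.0633, adjusted p = 5.4e-09), with no overlap. At 20 °C the log2 fold change was 1.37, and the transgene strain at 34 °C stood at 3052 ± 34.6 CPM, below both. Among 39 translation factor genes 5 (12.8%) were higher and 8 (20.5%) lower. The gene eif-2Bbeta, a subunit of the exchange factor that recycles eIF2, was higher at 111.5 CPM in the mutant and 42.3 CPM in N2 (log2 1.40 ± 0.0787, adjusted p = 2.2e-08).

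**Figure D4:**
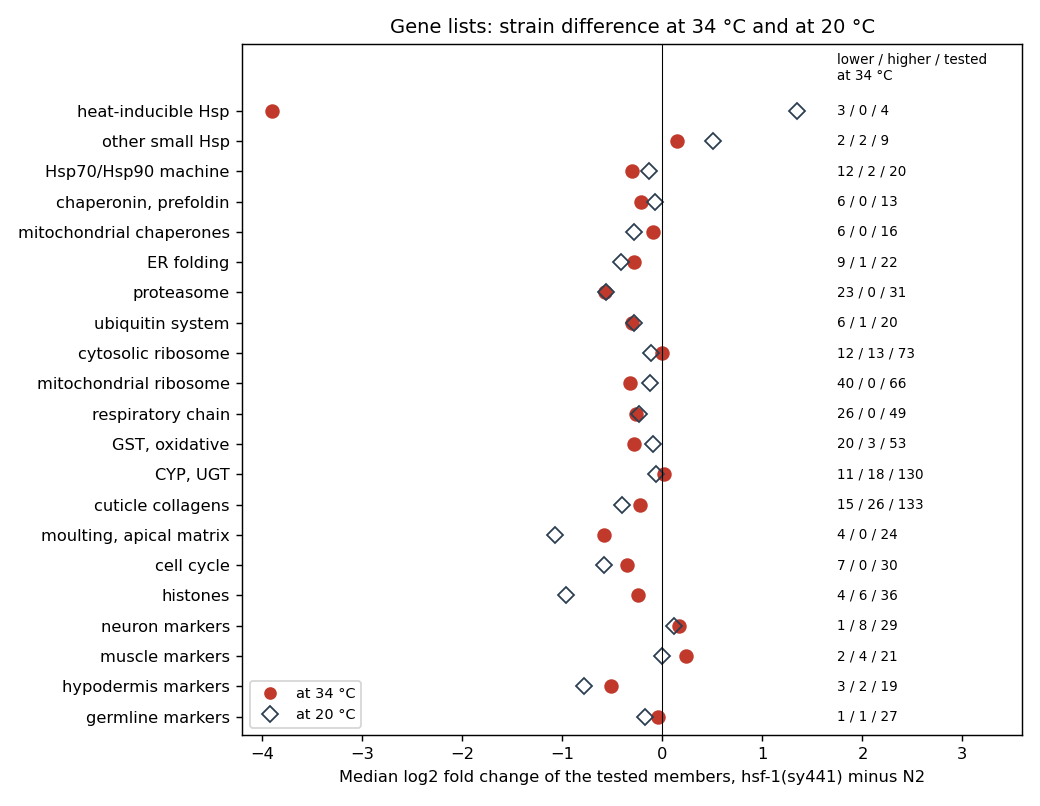
Median log2 fold changes of hsf-1(sy441) over N2 are shown for the tested members of 21 gene lists, at 34 °C (filled) and at 20 °C (open), with the numbers lower, higher and tested at 34 °C on the right. The heat-inducible Hsp list lies at −3.90 at 34 °C and at 1.34 at 20 °C, while most other lists lie at like values at both temperatures. At 20 °C its tested genes were near the detection limit, and 1 was called higher. Their sum there was 4.40 to 5.89 CPM in hsf-1(sy441) and 0.921 to 3.17 CPM in N2 libraries.

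Some genes were far more abundant in hsf-1(sy441) larvae at either temperature. The gene C38D9.2 (chromosome V, 17566413 to 17571577) stood at 25.5, 29.2 and 23.7 CPM in the mutant, against 0.488, 0.716 and 1.14 CPM in N2 larvae at 34 °C, 33.5-fold higher (log2 5.06 ± 0.252, adjusted p = 5.4e-09). At 20 °C its log2 fold change was 5.93. The Wee1-family kinase gene wee-1.1 stood at 11.8, 12.25 and 18.4 CPM in hsf-1(sy441), against 0.349, 0.205 and 0.803 CPM in N2 (log2 4.99 ± 0.524, adjusted p = 2.1e-05). That all mutant libraries exceeded all N2 libraries for both was required by the rule that named them. The 2 genes differed in the transgene strain, which carries the same hsf-1 allele: C38D9.2 averaged 19.6 CPM there and wee-1.1 0.723 CPM. The gene epic-2 stood at 142, 186.5 and 155 CPM in the mutant, against 7.25, 1.64 and 14.8 CPM in N2 (log2 4.36 ± 0.883, adjusted p = 0.0034), and at 20 °C at 42.2 and 30.4 CPM on average (adjusted p = 0.69). The difference of epic-2 between temperatures was not called (log2 3.89, adjusted p = 0.18). F08G2.5, F33H2.6 and ZK973.8, chosen after their values were seen, were 6.18-fold, 5.72-fold and 7.77-fold higher in hsf-1(sy441), and each was also higher at 20 °C.

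A few regulators of HSF-1 or of longevity were also higher, while 12 of 18 tested genes that act with or beside HSF-1 did not pass. In that list 5 (27.8%), hsf-1 included, were higher and 1 (5.56%) was lower, against 14.8% and 14.2% of all genes. Its median was 0.11. The gene hlh-30, the TFEB factor of autophagy, stood at 188, 192 and 190 CPM in hsf-1(sy441), against 78.7, 118.8 and 112.5 CPM in N2 larvae (log2 0.88 ± 0.168, adjusted p = 0.0021). The groups did not overlap. The gene ddl-2, whose product sits with DDL-1 and HSB-1 in a complex that holds HSF-1 inactive, averaged 19.9 CPM in hsf-1(sy441) and 11.7 CPM in N2 (log2 0.77, adjusted p = 0.0021). Its partner genes did not pass, with hsb-1 at 45.4 and 54.2 CPM (adjusted p = 0.092) and ddl-1 at 5.60 and 5.33 CPM (adjusted p = 0.69). The FOXO gene daf-16, chosen after its values were seen, averaged 297 CPM in the mutant and 210.0 CPM in N2 (log2 0.50, adjusted p = 0.017), with N2 replicate 3 at 268 CPM. The lower gene was xbp-1, the factor of the unfolded protein response (215 CPM in hsf-1(sy441) and 309 CPM in N2, log2 −0.52).

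Targets and members of insulin signalling split, with 10 of 33 (30.3%) higher and 8 (24.2%) lower, against 14.8% and 14.2% of all genes. With the 6 libraries alone 4 were higher and 0 lower. Leaving out single libraries gave 4 to 11 higher and 3 to 7 lower. The immunity-related gene dod-24 averaged 45.3 CPM in hsf-1(sy441) and 14.8 CPM in N2 larvae (log2 1.62 ± 0.162, adjusted p = 1.2e-05). The osmotic stress gene gpdh-1, which makes glycerol, averaged 57.2 CPM in the mutant and 24.3 CPM in N2 (log2 1.23, adjusted p = 0.0098). The inositol transporter gene hmit-1.1 averaged 29.9 and 9.76 CPM (log2 1.62, adjusted p = 0.0015). The metallothionein gene mtl-1 was called lower (log2 −3.06, adjusted p = 0.025), but it stood at 1.04, 0.479 and 1.099 CPM in hsf-1(sy441) and at 1.25, 1.02 and 19.6 CPM in N2, and a single library was far above the rest. The yolk gene vit-2, made by adult intestine, stood at 0.887, 0.684 and 0.466 CPM in the mutant, against 0.767, 0.819 and 29.0 CPM in N2, where the same N2 library was high. The part of such transcripts in the value of mtl-1 was not tested.

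Of 53 genes for glutathione transferases and oxidative defence 20 were lower and 3 higher, with a median of −0.28 (13 lower and 4 higher with scaling to library totals). The oxidative stress reporter gene gst-4 stood at 26.1, 26.9 and 27.1 CPM in hsf-1(sy441), against 48.05, 46.0 and 60.3 CPM in N2 larvae (log2 −0.95 ± 0.136, adjusted p = 0.0003). Another glutathione transferase gene, gst-24, went the other way at 121, 106 and 134 CPM in the mutant, against 22.9, 15.3 and 38.2 CPM in N2 (log2 2.24 ± 0.522, adjusted p = 0.0076). Both were free of overlap and had like differences at 20 °C, of −0.80 and 2.58. Of 130 cytochrome P450 and UDP-glucuronosyltransferase genes 18 (13.8%) were higher and 11 (8.46%) lower, against 14.8% and 14.2% of all genes, with a median of 0.02. Among them ugt-24 averaged 24.4 CPM in hsf-1(sy441) and 5.91 CPM in N2 (log2 2.05 ± 0.237, adjusted p = 4.8e-05). Of 176 immune effector genes 28 were higher and 25 lower, shares of 15.9% and 14.2% close to those of all genes. The peroxisomal gene maoc-1, which acts in fatty acid oxidation, was lower at 119.3 CPM in the mutant and 258 CPM in N2 (log2 −1.11 ± 0.0886, adjusted p = 8.9e-07).

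The N2 libraries differed widely from each other in the 10 largest falls, none of which is on the collagen or moulting list, and in the collagen genes dpy-5 and rol-6. Larvae rebuild the cuticle, an apical matrix of collagens, at each moult, and its genes are known to pulse once per larval stage. The largest fall that met the rule for named genes was in lips-6, a lipase-related gene, which stood at 0.148, 0.308 and 0.366 CPM in hsf-1(sy441), against 10.81, 59.5 and 1.14 CPM in N2 larvae (log2 −6.37 ± 1.84, adjusted p = 0.022). The hedgehog-related gene grl-5 stood at 5.92, 10.9 and 4.36 CPM in the mutant, against 210, 542 and 12.64 CPM in N2 (log2 −5.17, adjusted p = 0.018). The ion channel gene lgc-22 stood at 13.3, 22.8 and 7.30 CPM, against 442, 954 and 24.9 CPM in N2 (log2 −5.03, adjusted p = 0.017). In each, N2 replicate 3 lay near the mutant libraries, and the lack of overlap was required by the rule for named genes. The other largest falls, F30A10.2, K02E11.10, mam-2, C38C6.3, K02E7.1, C50D2.1 and lips-9, had log2 fold changes of −5.36 to −4.91 and adjusted p-values of 0.013 to 0.028, and all 10 lost the call in 3 to 9 of 19 alternatives. All 10 were also called lower at 20 °C, where their N2 libraries had the same order by replicate number as at 34 °C.

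Of 133 cuticle collagen genes 26 (19.5%) were higher and 15 (11.3%) lower, against 14.8% and 14.2% of all genes, with a median of −0.22. That median was 0.11 with the 6 libraries alone and ran from −0.39 to 0.29 when single libraries were left out. The collagen gene dpy-5 stood at 226, 432 and 74.5 CPM in hsf-1(sy441), against 2518, 3446 and 325 CPM in N2 larvae (log2 −3.10, adjusted p = 0.038). The collagen gene rol-6 stood at 245.5, 351 and 55.0 CPM, against 1826, 2626 and 261.5 CPM in N2 (log2 −2.86, adjusted p = 0.049). The groups overlapped in both genes, with N2 replicate 3 among the mutant libraries, and within each replicate number the mutant library was the lower of the pair. The collagen gene col-173 and the moulting gene mlt-10 had the same order of libraries, with log2 fold changes of −4.41 and −3.61. Between 8 and 11 of 19 alternatives ended the calls of these 4 genes.

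Other collagens were higher in the mutant. The gene col-146 stood at 23.6, 18.7 and 81.9 CPM in hsf-1(sy441), against 0.558, 0.358 and 3.28 CPM in N2 larvae (log2 4.92 ± 1.204, adjusted p = 0.01). Its neighbour on chromosome V, col-147, stood at 640, 512 and 1126 CPM, against 24.1, 5.47 and 195 CPM in N2 (log2 3.34, adjusted p = 0.048). Here replicate 3 was the highest library of each strain. The same held for col-159 and col-91, with log2 fold changes of 3.80 and 3.26. Of 19 alternatives, 2 ended the call of col-146, 10 that of col-147, 5 that of col-159 and 6 that of col-91, with adjusted p-values of up to 0.15. The block of replicate numbers gave 41 higher and 35 lower collagen genes. Leaving out single libraries gave 4 to 37 higher and 2 to 34 lower collagen genes. In the transgene strain col-147 averaged 340 ± 367 CPM, so its libraries were also spread.

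**Figure D5:**
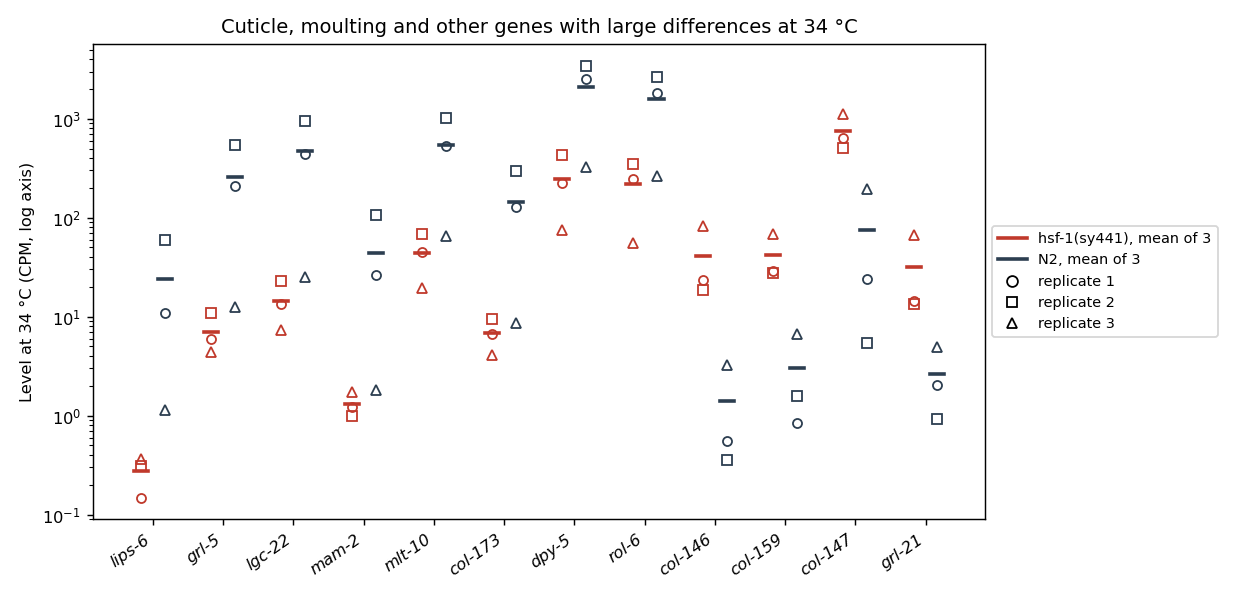
Levels at 34 °C in CPM on a log axis are shown for 12 genes with large differences, cuticle, moulting and other genes, with 1 symbol per library. In N2, replicate 3 (triangles) falls toward the mutant level for lips-6 to rol-6, and in both strains it is the highest library for col-146 to grl-21.

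Of 24 moulting and apical matrix genes 4 (16.7%) were lower, against 14.2% of all genes, and 20 did not pass. Their median was −0.59. The kinase gene nekl-3, needed for moulting, was lower under every alternative at 30.8 ± 3.95 CPM in hsf-1(sy441) and 55.4 ± 10.1 CPM in N2 larvae (log2 −0.85, adjusted p = 0.0014). The gene mlt-8 stood at 407, 425 and 135 CPM in the mutant, against 1242, 1376 and 543.5 CPM in N2 (log2 −1.71, adjusted p = 0.041). Again replicate 3 was low in both strains. Of 11 heterochronic genes, which time larval fates, 3 (27.3%) were higher, against 14.8% of all genes. They were hbl-1 at 102.5 CPM in hsf-1(sy441) and 57.0 CPM in N2 (log2 0.85 ± 0.115, adjusted p = 0.0002), lin-14 at 64.3 and 36.9 CPM (log2 0.80, adjusted p = 0.0055) and lin-41 at 304 and 206 CPM (log2 0.56, adjusted p = 0.003). The period homologue lin-42, whose transcript oscillates with the moults, stood at 315.5, 431 and 78.8 CPM in the mutant and at 276, 339 and 171 CPM in N2 (adjusted p = 0.95).

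Genes of cell division were lower in part. Of 30 cell cycle and replication genes 7 (23.3%) were lower, against 14.2% of all genes, with a median of −0.36. At 20 °C 17 were lower and 3 higher, where 11.5% of all genes were lower and 9.42% higher. The ribonucleotide reductase gene rnr-2 averaged 59.3 CPM in hsf-1(sy441) and 110 CPM in N2 larvae (log2 −0.89, adjusted p = 0.022), the aurora kinase gene air-1 38.7 and 69.6 CPM (log2 −0.85), and cdk-1 31.6 and 55.3 CPM (log2 −0.81). With the replicate block 16 were lower and 1 higher, and leaving out single libraries gave 1 to 13 lower. With the 6 libraries alone edgeR called 0 of the 30, with 9 lower and 1 higher at an unadjusted p under 0.05, while DESeq2 on all 18 libraries called 10 lower. Of 36 histone genes 6 (16.7%) were higher and 4 (11.1%) lower at 34 °C, where 14.8% and 14.2% of all genes were. At 20 °C 1 histone gene was higher and 21 were lower, where 9.42% and 11.5% of all genes were. The medians were −0.25 at 34 °C and −0.96 at 20 °C. Most histone mRNAs lack a poly(A) tail, so a poly(A) library reports them poorly.

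Marker genes of tissues were compared because whole animals were used, in which fewer cells of a type and less RNA per cell cannot be told apart. Neuron markers were higher in 8 of 29 genes (27.6%) and lower in 1 (3.45%), against 14.8% and 14.2% of all genes. Their median was 0.16. The GABA synthesis gene unc-25 averaged 188 CPM in hsf-1(sy441) and 100.2 CPM in N2 larvae (log2 0.91 ± 0.167, adjusted p = 0.0016), the active zone gene unc-10 39.3 and 21.1 CPM (log2 0.90) and the GABA transporter gene unc-47 12.58 and 7.09 CPM (log2 0.83). These 3 calls held under each alternative. The summed neuron marker level was 2178 to 2372 CPM in hsf-1(sy441) and 2035 to 2277 CPM in N2, which overlap. Of 21 body muscle markers 4 were higher and 2 lower, and of 27 germline markers 1 was higher and 1 lower. Of 21 intestine markers 5 (23.8%) were lower, and of 16 pharynx markers 2 (12.5%) were lower although their median was 0.46. With the 6 libraries alone 0 muscle, intestine or pharynx markers were called. Hypodermis markers included the collagens above: 2 of 19 (10.5%) were higher and 3 (15.8%) lower. Their sum was 5870, 7065 and 2675 CPM in hsf-1(sy441) and 16740, 17850 and 6498 CPM in N2 larvae. The part of tissue makeup or of larval timing in any of these differences was not tested.

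In the authors' deposited table of the same comparison 837 genes (5.95% of 14077) were significantly higher and 923 (6.56%) lower in hsf-1(sy441). Of those, 1732 were also tested with edgeR, and 1129 of these were called in the same direction and 0 in the opposite one. The shared calls were 65.2% of the authors' genes and 27.4% of those called with edgeR. The log2 ratios of hsp-70, hsp-110 and hsp-90 in the authors' deposited table were −4.14, −3.09 and −1.60. These genes were significant there, as were rpn-3, pas-2, pas-3 and unc-25. Other genes called with edgeR were not significant there, among them mrps-16, mrpl-32, asb-1, nuo-6, pfd-6, phb-2, pbs-3, unc-10, unc-47 and srt-42.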

How the data were processed

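Per the submitters' processing notes, reads were processed with TopHat2 and Cuffdiff on build ce10; versions, annotation, trimming and options are not given in the sources used here. The deposited read-group table has, per its header, an expected count of unscaled fragments for each gene in each library and FPKM values, which the authors scaled. The authors' deposited test table gives their log2 ratios of FPKM, p-values and q-values. Of the fragment values 92.43% were whole within 1e-06, and rounding the rest moved no library total by over 4e-05%. Replicate numbers start at 0 in the table and at 1 in the labels and were matched in order. Of 20389 genes 19881 were matched to a name by identifier. Cuffdiff failed for 114 genes, 82 of them in the 6 libraries, and these were left out. Genes in a merged locus have uncertain values where reads could not be assigned.

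Rounded counts of all 18 libraries (16.1 to 34.7 M fragments) were fitted with edgeR 4.0.16 in R 4.3.3: filterByExpr, TMM (factors 0.85 to 1.239), robust quasi-likelihood, 1 mean per group, a biological coefficient of variation of 25.3%. The pipeline was tested on simulated data. Alternatives used DESeq2 1.42.0 on the counts, limma 3.58.1 on log2(FPKM + 0.1 or 1), other scalings and filters, the 6 libraries alone, a replicate block and single libraries left out. Deviations of same-numbered libraries correlated at 0.28, 0.26 and 0.36, each over 0.1. Deviations of differently numbered libraries correlated at −0.44 to 0.36, and hsf-1(sy441) replicate 2 correlated best with N2 replicate 1. The numbers were used as pairs in the replicate block only. The adjusted p-values given for single genes come from the fit without pairing.

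Named genes are hsf-1, the 10 largest rises and 10 largest falls among called genes with at least 10 CPM in the higher strain and no overlap, the inducible heat shock genes, and up to 4 called members of each of 34 lists with at least 5 CPM; others were chosen after their values were seen. Members and lists were chosen with earlier results of these data known, and the collagen list was corrected by gene identity. PCR reads carry no molecular identifiers as far as stated. No sequences are shown.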

Additional observations from a re-analysis of the deposited data

Results flagged for a closer look

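Among the genes described, 30 had a strain difference that itself differed between 34 °C and 20 °C, by the test of that difference in edgeR with adjustment over 14219 genes. The following values are log2 differences, the strain difference at 34 °C minus that at 20 °C, with hsf-1(sy441) over N2 each time. Among chaperones and cofactors they were −6.49 for hsp-70, −3.29 for hsp-110, −2.24 for dnj-13, −1.04 for hsp-90, −1.31 for unc-23, −0.84 for hsp-1 and −2.36 for hsp-4. Among other genes lower in hsf-1(sy441) at 34 °C they were −3.91 for scp-1, −2.66 for ttll-12, −2.60 for R107.5, −1.61 for cls-2, −1.77 for ikke-1, −1.69 for nud-2, −4.26 for R11A5.3, −1.87 for nurf-1, −2.03 for Y43F8B.2, −2.25 for aip-1, −1.58 for sqst-1 and −0.81 for efk-1.

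A few of these genes lie beside heat shock genes. The chemoreceptor gene srt-42, in the merged locus of hsp-16.2, had a value of −3.65 and averaged 3.51 CPM in hsf-1(sy441) and 54.3 CPM in N2 larvae at 34 °C. C47E8.4 and C47E8.11, in and beside the locus of hsp-90, had values of −2.01 and −6.09. T27E4.1, beside the hsp-16.1 cluster, had −2.72. Whether reads of the neighbouring heat shock genes contribute to these values was not tested.

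Values above 0 were found for his-24 (2.64), dpy-17 (2.58), osm-11 (1.22), F52G3.1 (1.16), sys-1 (0.82), Y17G7B.21 (0.69) and par-3 (0.54). No group held the 4 samples needed to look for single outlying libraries.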

How the results depend on the processing

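The counts of 4124 called genes, 2111 higher and 2013 lower in hsf-1(sy441), changed with the fit. The 6 libraries alone gave 971, 584 higher and 387 lower, or 980, 590 and 390 when genes with failed estimates elsewhere were kept. With the replicate block 3187 were higher, and the block within the 6 libraries alone gave 2413, 1177 higher and 1236 lower. Scaling to library totals gave 1313 lower. With limma 1068 were lower at a pseudocount of 0.1 and 1095 at 1. Leaving out single libraries gave 2319 to 5286 called, 1256 to 2730 higher and 1035 to 2556 lower; the largest counts came without N2 replicate 3, and there were 1035 lower without hsf-1(sy441) replicate 3, 1267 lower without its replicate 1, 1256 higher and 1063 lower without N2 replicate 1 and 1155 lower without N2 replicate 2. The 70 genes whose strain difference differed between temperatures became 217 with the replicate block, 404 with DESeq2, 48 to 156 when single libraries were left out (156 without N2 replicate 3) and 126 without both libraries numbered 3. Both libraries numbered 3 were left out as an alternative chosen after seeing the data. In every one of 19 alternatives 378 genes were called higher and 272 lower. For single genes, hsp-16.21 changed sign, to 0.66 without N2 replicate 3 and to 0.95 without both libraries numbered 3, and was −4.71 to 0.66 when single libraries were left out. The median of the yolk genes could not be had at a mean of at least 5 CPM. Of the named genes that were called, 69 kept the call in every alternative that tested them, 82 lost it with the 6 libraries alone and 4 with the replicate block. The cause of these changes was not tested. The fits of 6 libraries used fewer samples, and the part of this in their lower counts was not tested either.

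With 3 libraries a group and 18.2 to 34.7 M fragments each, differences in genes near 1 CPM were poorly resolved. Merged loci limit single values of hsp-70, hsp-16.2, hsp-90 and dnj-13.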

Other observations

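Genes whose strain difference was more negative at 34 °C than at 20 °C often lay near each other. Of the 43, 19 (44.2%) had another of them within 10 kb, against 181 tested genes (1.27%) with 1 of the 43 within that distance. The groups were hsp-110 with ZK1236.9 and ZK1236.5, hsp-70 with uggt-2, hsp-90 with C47E8.4 and C47E8.11, scp-1 with ttll-12, R107.5 with ikke-1 and cls-2, nud-2 with R11A5.3, F57A8.1 with str-118, and dct-10 with fbxa-149. Some of these neighbours share a merged locus, where fragments of 1 gene can be assigned to the other. The sharing of fragments was not tested.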
